A study of Mus musculus with 20 samples.

Results

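By the labels, the step compared here ran from basophilic and polychromatic erythroblasts (stages II and III, pooled as DWT-II+III) to orthochromatic erythroblasts (stage IV, DWT-IV). The mice were double wild-type. Both groups came from healthy C57BL/6 mice aged 1 year that carried normal mDia1 and miR-146a. Each group held 2 arrays, 1 from a male (replicate 1) and 1 from a female (replicate 2), so 4 of the 20 Clariom S arrays of the series entered the comparison. The readout was all 19572 named probe sets (19505 genes), and no probe set was chosen by its value. The series holds 10 groups. Of these, DWT-I (labelled proerythroblasts, stage I, of the same genotype, strain and age) entered the fit as well. The same stages of mice lacking both mDia1 and miR-146a (DKO, 2 female mice aged 1 year) served for 1 comparison of steps. The labels do not state how the stages were separated or, for the freshly isolated cells, from which organ they were taken.

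Red cell precursors divide a few times while they fill with haemoglobin, shrink and condense the nucleus. Orthochromatic erythroblasts are the last nucleated stage and are described in textbooks as having left the cell cycle before the nucleus is expelled. Transcription factors such as GATA1 and KLF1 drive the genes of haem, globin and membrane assembly, while MYC and KIT, which sustain the growth of early precursors, are switched off.

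Signals are log2 values after robust multi-array averaging (RMA), so a difference of 1 is a change of 2-fold. A probe set counted as above background in an array when it exceeded the 95th percentile of the background probe sets of that array, a level between 7.25 and 7.58 in the 4 arrays. Between 38.4% and 43.0% of named probe sets did. Across probe sets the 2 arrays of DWT-II+III correlated at r = 0.986 and those of DWT-IV at r = 0.980, against 0.915 to 0.959 for pairs taken from both groups. Array signals carry no count depth, and the number of arrays limits the precision.

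Marker genes bore out the erythroid label and the stage label only in part. Mean signal of 10 erythroid markers was 14.82 and 14.12 in DWT-II+III and 15.80 and 15.54 in DWT-IV, above the 13.08 and 12.92 of DWT-I. Of these markers 9 rose, with a median of 1.28, and 2 did without DWT-II+III replicate 2, 3 without DWT-IV replicate 1 and 4 without either DWT-I array. With all 12 DWT and DKO arrays in the fit 2 erythroid markers rose, Gata1 and Ermap. Epor, Tfrc, Rhag and Hemgn rose as well without DKO-I replicate 2 among them. Markers of several other blood cell types fell by more, and the part of both shifts in the increases and decreases described below was not tested. The 15 neutrophil genes averaged 10.88 and 12.78 in DWT-II+III and 7.73 and 9.61 in DWT-IV. In DWT-I they had averaged 15.72 and 16.01, above the erythroid markers of the same arrays. Genes of cell division, in contrast, were higher in DWT-IV than at either earlier stage, which goes against the textbook picture of a stage that no longer divides. The groups are therefore called by their labels below. Adult globins were not matched by name and are not analysed here.

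**Figure D1:**
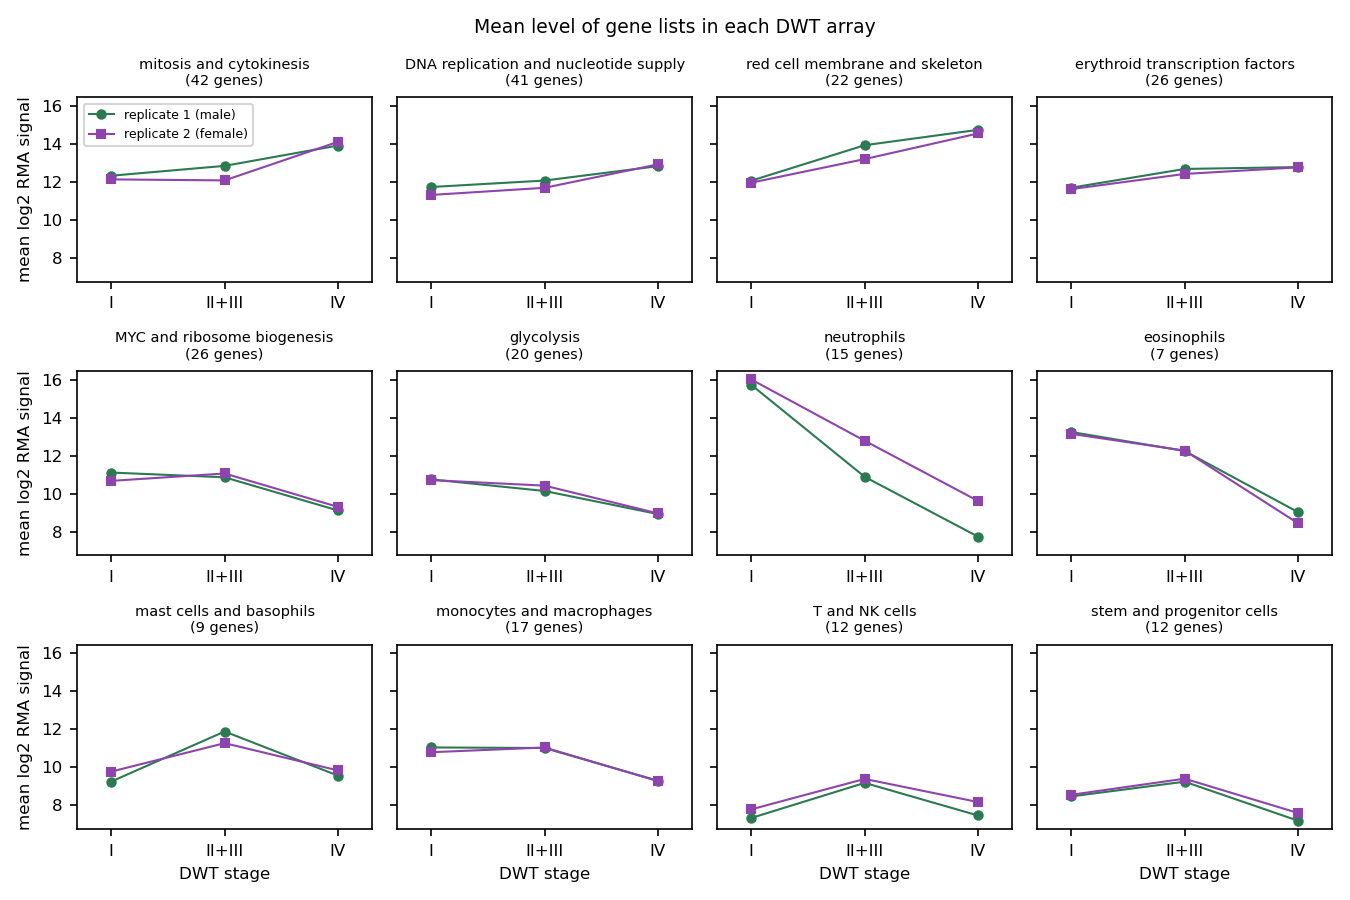
Mean log2 RMA signal (vertical axis) of the measured members of 12 gene lists in each of the 6 DWT arrays (horizontal axis, stage), with the arrays of replicate 1 (male) and replicate 2 (female) joined by lines. Mitosis, replication and membrane genes were highest in DWT-IV, neutrophil genes fell from 15.72 and 16.01 in DWT-I to 7.73 and 9.61, and the mast cell and the T and NK cell lists were highest in DWT-II+III.

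In limma, 4139 of 19572 probe sets (21.1%) passed an adjusted p of 0.05 between DWT-IV and DWT-II+III. Of these, 1675 were higher in DWT-IV (8.56% of those tested) and 2464 lower (12.6%). The decreases reached further than the increases: 297 probe sets fell by 8-fold or more, and 4 rose by that much. The median change of all named probe sets was 0.12, and that of the 8140 above background in both arrays of either group was -0.08. A fit of only these 8140 called 1611 higher and 2378 lower. In each direction that is a larger share than over all probe sets, many of which lay near background. The shares over all probe sets given below are thus a low mark for lists mostly above background. The split depended on the scaling. Positive control probe sets read 0.24 lower in DWT-IV, and centring each array on them moved the median of all named probe sets to 0.36 and turned the share of higher calls from 40.5% to 61.4%. In 12150 probe sets (62.1%) the arrays of the 2 groups did not overlap, so a gap between groups is by itself common in these data. Of the 4125 genes called, 755 kept the call in each of 17 refits with another scaling, filter, model or set of arrays. The refit with all 12 in vivo arrays (the DWT and DKO arrays) gave the fewest calls, 1010. With DKO-I replicate 2 alone left out of it, an array that correlated with its partner at r = 0.903, there were 3272, and 1173 genes kept the call in the 16 refits other than that of all 12. Counts or called genes without that array are therefore given beside the counts with all 12.

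**Figure D2:**
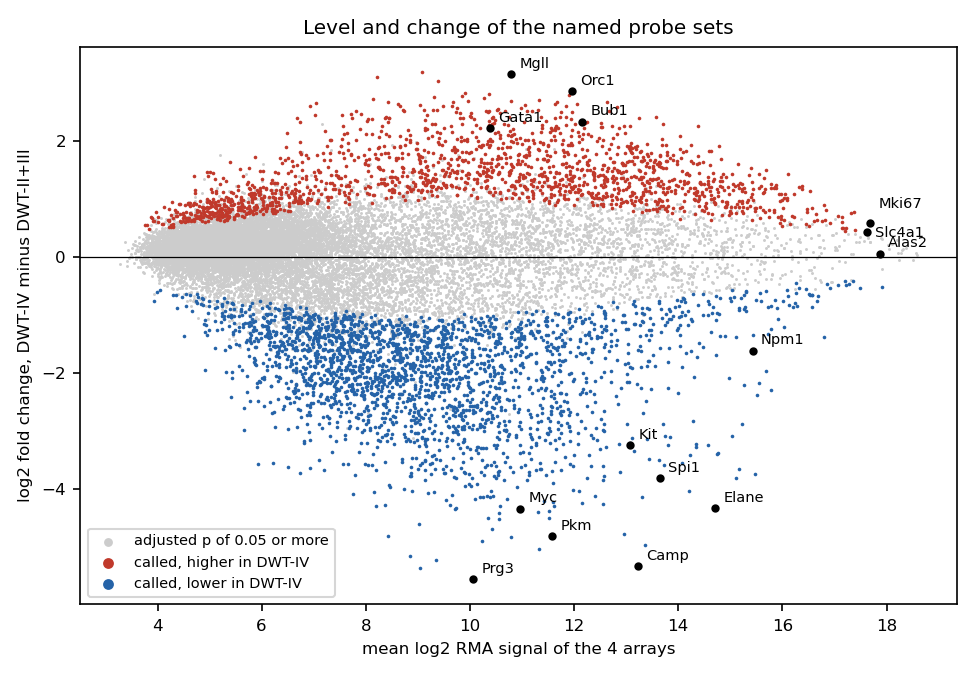
Log2 fold change from DWT-II+III to DWT-IV (vertical axis) against the mean log2 RMA signal of the 4 arrays (horizontal axis) for the 19572 named probe sets, with probe sets that passed an adjusted p of 0.05 in limma in red (1675 higher) and blue (2464 lower). Decreases reached -5.54 (Prg3), whereas the labelled increases ended at 3.15 (Mgll).

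The list of mitosis and cytokinesis genes rose almost as a whole. Of 42 measured members 41 rose and 0 fell, with a median of 1.56, against 8.56% of all probe sets higher and a median of 0.12. The mean signal of the list was 12.84 and 12.08 in DWT-II+III and 13.91 and 14.11 in DWT-IV. It had been 12.32 and 12.13 in DWT-I, and 0 members passed between DWT-I and DWT-II+III. Bub1, a kinase of the spindle checkpoint, read 11.58 and 10.39 in DWT-II+III and 13.33 and 13.31 in DWT-IV. Both DWT-IV arrays lay above both DWT-II+III arrays, and the male DWT-II+III array lay closer to them than the female one. The increase was 2.33 ± 0.40 (SE, adjusted p = 0.00465 in limma). Anln, which encodes the contractile ring scaffold anillin, read 10.00 and 9.18 against 11.79 and 11.97 and rose by 2.29 ± 0.35. Top2a, the topoisomerase that untangles sister chromatids, read 13.13 and 12.48 against 14.46 and 14.44 and rose by 1.64 ± 0.27 (adjusted p = 0.00392 in limma). Top2a lost the call in 1 refit, the one that held all 12 in vivo arrays, and kept it there without DKO-I replicate 2.

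Other members covered each phase of division. Cdk1, the kinase that starts mitosis, rose by 1.58, Aurka by 2.01, the checkpoint gene Bub1b by 2.02, the anaphase activator Cdc20 by 1.81, and Ect2 and Prc1, which position the cleavage furrow and the midzone, by 2.29 and 1.93. Mki67, the proliferation antigen, was the smallest called member at 0.59 ± 0.18 (adjusted p = 0.0416 in limma). It read 17.67 and 17.10 in DWT-II+III and 17.99 and 17.96 in DWT-IV, so its groups did not overlap, and it lost the call in 11 of 17 refits. Melk was the 1 member that did not pass, at 1.88. The list count fell to 26 without DWT-II+III replicate 2, to 21 with all 20 arrays in the fit and to 2 with all 12 in vivo arrays. It was 40 when DKO-I replicate 2 was left out of the last, and 0 members fell in any of the 17 refits.

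The kinesin gene Kif14, which acts in cytokinesis, was outside the list and among the 15 largest increases, at 10.52 and 9.44 in DWT-II+III and 12.68 and 12.70 in DWT-IV (2.71 ± 0.39). Ankle1, a nuclease gene, rose by 2.79 from 11.20 and 9.82 to 12.96 and 13.64. The groups of both genes lay apart.

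Genes of DNA replication and nucleotide supply rose as well, by less. Of 41 measured members 24 rose and 0 fell, with a median of 0.98. Orc1, the largest subunit of the origin recognition complex, had the largest increase of any listed gene, from 11.09 and 9.96 to 13.19 and 13.59 (2.87 ± 0.40, adjusted p = 0.00212 in limma). Rrm2, the regulated subunit of ribonucleotide reductase, went from 13.55 and 12.42 to 15.07 and 15.07, a rise of 2.08 that was lost with all 12 in vivo arrays or all 20 arrays in the fit. Cdc6, which loads the replicative helicase, rose by 1.97 ± 0.42, a call lost without DWT-II+III replicate 2. Cdc6 also lost the call with all 12 in vivo arrays, but not without DKO-I replicate 2 among them. The DWT-IV arrays lay above the DWT-II+III arrays for Orc1, Rrm2 and Cdc6. Mcm2, a subunit of that helicase, read 14.63 and 14.63 against 15.39 and 15.39, a rise of 0.76 ± 0.22 that was lost in 9 of 17 refits. The sliding clamp gene Pcna did not pass, at 0.38 (adjusted p = 0.15 in limma). Without DWT-II+III replicate 2 the list count was 3, without DWT-IV replicate 2 it was 8, without DWT-IV replicate 1 it was 10, and without either DWT-I array it was 11. With all 12 in vivo arrays it was 1, and 14 without DKO-I replicate 2 among them.

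The promoters of 6 rising genes, picked among the named genes, are shown. The gene groups of mitosis and replication are known for shared promoter letters. Kif14, E2f7 and Epor are in neither of these lists, and the rises of E2f7 and Epor are given below. The CCAAT box (CCAAT) is a site of the factor NF-Y, the CHR element (TTTGAA) of the complexes that restrain or drive late cell cycle genes, the E2F motif (GCGGGAA) of E2F factors, and the GATA motif (AGATAA) of GATA factors. Each run gives the 250 bases before the annotated start, from RefSeq on GRCm38.p6, 5′ to 3′ on the strand of the gene, with every match to any of these 4 motifs on either strand in capitals. Only these exact letters were searched, so other forms of the sites are not marked or counted.
Bub1 (chr2:127831860-127832109, minus strand): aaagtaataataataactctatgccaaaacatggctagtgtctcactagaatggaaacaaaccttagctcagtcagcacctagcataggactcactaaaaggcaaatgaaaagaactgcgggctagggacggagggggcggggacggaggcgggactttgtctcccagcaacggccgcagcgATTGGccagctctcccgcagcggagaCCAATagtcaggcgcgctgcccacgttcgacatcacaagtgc
Kif14 (chr1:136467598-136467847, plus strand): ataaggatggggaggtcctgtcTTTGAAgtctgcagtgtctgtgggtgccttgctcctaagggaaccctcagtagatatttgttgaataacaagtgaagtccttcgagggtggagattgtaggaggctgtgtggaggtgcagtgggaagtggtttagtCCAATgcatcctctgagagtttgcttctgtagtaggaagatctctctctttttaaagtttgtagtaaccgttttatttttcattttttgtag
Top2a (chr11:99024190-99024439, minus strand): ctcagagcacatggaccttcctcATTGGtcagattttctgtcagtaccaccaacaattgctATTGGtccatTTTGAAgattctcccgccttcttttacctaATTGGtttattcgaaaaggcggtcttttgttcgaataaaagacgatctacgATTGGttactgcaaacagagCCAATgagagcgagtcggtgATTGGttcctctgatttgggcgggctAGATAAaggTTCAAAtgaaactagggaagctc
Orc1 (chr4:108579204-108579453, plus strand): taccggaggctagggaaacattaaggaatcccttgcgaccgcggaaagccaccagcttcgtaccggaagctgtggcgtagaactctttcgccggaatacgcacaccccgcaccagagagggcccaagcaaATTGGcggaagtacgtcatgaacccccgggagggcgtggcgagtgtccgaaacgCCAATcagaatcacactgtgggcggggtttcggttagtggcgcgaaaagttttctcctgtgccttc
E2f7 (chr10:110745189-110745438, plus strand): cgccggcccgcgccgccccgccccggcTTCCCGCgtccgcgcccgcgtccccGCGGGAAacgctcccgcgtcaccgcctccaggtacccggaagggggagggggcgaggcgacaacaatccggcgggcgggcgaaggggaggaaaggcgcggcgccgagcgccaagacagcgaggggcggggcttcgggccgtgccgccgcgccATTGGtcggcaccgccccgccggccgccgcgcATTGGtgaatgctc
Epor (chr9:21963577-21963826, minus strand): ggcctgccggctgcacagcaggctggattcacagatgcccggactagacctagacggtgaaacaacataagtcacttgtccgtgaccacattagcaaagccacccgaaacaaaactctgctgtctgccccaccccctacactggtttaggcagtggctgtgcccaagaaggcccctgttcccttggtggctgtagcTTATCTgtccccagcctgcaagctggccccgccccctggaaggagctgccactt
Top2a held 6 CCAAT boxes, 2 CHR elements and 1 GATA motif, and Bub1 and Orc1 held 2 CCAAT boxes each. Kif14 held 1 CCAAT box and 1 CHR element, E2f7 held 2 CCAAT boxes and 2 E2F motifs, and Epor held 1 GATA motif.

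The same search over genes with a single promoter window gave the shares behind these examples. Of 34 mitosis genes, 23 (67.6%) held a CCAAT box and 10 (29.4%) a CHR element. Over all 13127 array genes with a single window the shares were 36.5% and 14.9%, and over all 32851 RefSeq windows they were 33.9% and 16.0%. Of 30 replication genes, 19 (63.3%) held a CCAAT box and 8 (26.7%) an E2F motif, which 5.11% of the array genes and 3.82% of all windows held. A CCAAT box stood in 7 of 11 haem synthesis genes as well (63.6%). A GATA motif stood in 5 of 15 membrane genes (33.3%), in 1 of 11 haem synthesis genes and in 1 of 13 erythroid transcription factor genes, against 9.23% of the array genes and 9.99% of all windows. Over the 1110 genes that rose, 44.4% held a CCAAT box, against 35.9% of the 1573 that fell and 37.4% of the 3240 that were above background and did not pass. In the same order, 15.9%, 11.4% and 10.6% held a CHR element, 8.11%, 5.02% and 8.09% an E2F motif and 8.65%, 6.48% and 6.11% a GATA motif. These are matches of letters, and binding was not measured.

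Regulators of the cell cycle gave calls in both directions. Of 39 measured members 22 rose (56.4%) and 5 fell (12.8%), with a median of 0.93. The share that fell was near the 12.6% over all probe sets, of which 8.56% rose. It was under that in the fit of only the probe sets above background, where 2378 of 8140 fell. E2f7, a repressor that closes S phase, rose from 11.42 and 10.82 to 13.24 and 13.09 (2.04 ± 0.33), and Cdc25c, a phosphatase that activates CDK1, rose by 2.04. The inhibitors Cdkn2d, Cdkn2c and Cdkn1b rose by 1.68, 1.58 and 1.39, and the retinoblastoma gene Rb1 by 1.43. With all 12 in vivo arrays E2f7 was the only member that rose. Without DKO-I replicate 2 among them Cdc25c, the 3 inhibitors and Rb1 rose as well. The genes that fell belonged to early G1 or to the p53 response. Cdk6, the G1 kinase of progenitors, read 14.46 and 14.50 in DWT-II+III and 11.02 and 10.25 in DWT-IV, with no overlap, and fell by 3.85 ± 0.30 (adjusted p = 0.000351 in limma). Its partner Ccnd2 went from 8.56 and 8.91 to below background in both DWT-IV arrays, with a log2 bound of -1.42, whereas Ccnd3, the D cyclin of late erythroid cells, did not pass at 0.17. Cdk4, Ccng1 and the CDK inhibitor Cdkn1a fell (log2 changes of -1.68, -1.80 and -2.81). With all 12 in vivo arrays Ccnd2, Cdk4, Ccng1 and Cdkn1a lost the call, and Cdk6 kept it. Without DKO-I replicate 2 among them Cdkn1a still lost it, and the others fell. The list gave 12 increases without DWT-IV replicate 1 and 7 without DWT-II+III replicate 2.

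Among 57 replication-dependent and linker histone genes 18 rose and 0 fell, with a median of 0.50. H3c1 rose from 8.19 and 7.52 to 10.43 and 10.35 (2.53 ± 0.36), and the linker histone H1f5 by 1.23. Histone genes are near-identical copies, so their probe sets may share signal. Their count ran from 1 to 46 over the 17 refits. It was 46 with positive control scaling and 1 with all 12 in vivo arrays (12 without DKO-I replicate 2), and without 1 DWT array it was lowest at 3 (without DWT-IV replicate 1) and highest at 39 (without DWT-II+III replicate 1).

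**Figure D3:**
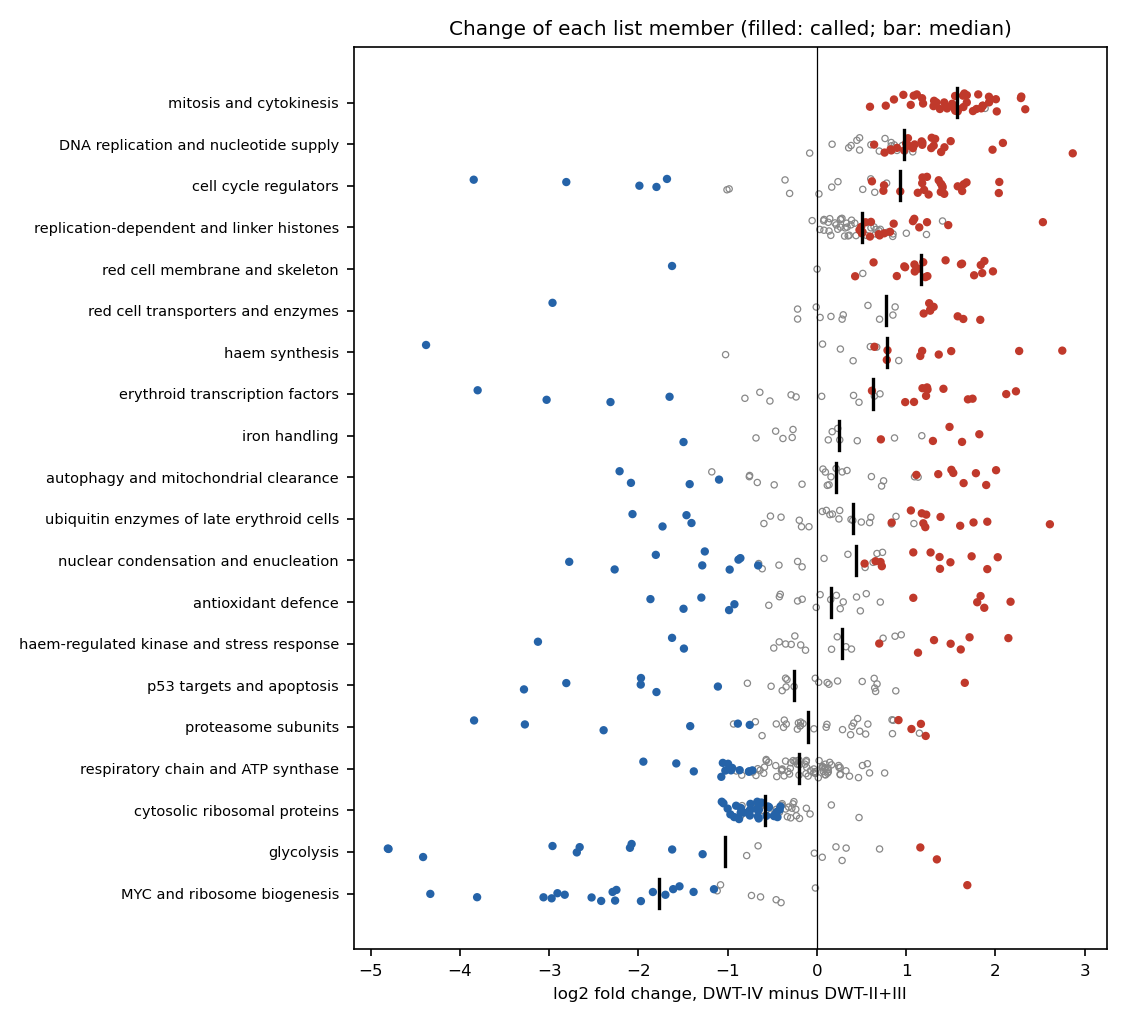
Log2 fold change from DWT-II+III to DWT-IV (horizontal axis) of each measured member of 20 gene lists (rows), with members that passed in limma filled (red higher, blue lower), the others open, and the median of each list as a bar. Mitosis genes lay to the right of 0 as a group, with 41 of 42 filled, and the list of MYC and ribosome biogenesis to the left, with 18 of 26 lower.

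Genes of the red cell membrane and its skeleton rose further in DWT-IV. Of 22 measured members 19 rose and 1 fell, with a median of 1.17, and their mean signal was 13.93 and 13.20 in DWT-II+III and 14.74 and 14.55 in DWT-IV. Ermap, which carries a red cell blood group, read 14.84 and 13.83 in DWT-II+III and 15.99 and 15.90 in DWT-IV (1.61 ± 0.30, adjusted p = 0.00675 in limma). Add2, which caps actin in the skeleton, went from 12.62 and 11.66 to 14.22 and 13.76 (1.85 ± 0.37). For both genes the female DWT-II+III array was the lowest of the 4 and the groups lay apart. The largest increases of the list were Gypc (glycophorin C) at 1.97, Xk at 1.88 and the spectrin gene Sptb at 1.84. The blood group genes Rhd and Kel rose by 1.76 and 1.44, and the ankyrin gene Ank1 by 0.98.

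Slc4a1, the anion exchanger band 3, stood at 17.52 and 17.30 in DWT-II+III and 17.86 and 17.82 in DWT-IV. Its groups did not overlap, and the rise was 0.43 ± 0.12 (adjusted p = 0.0345 in limma), a call that was lost in 12 of 17 refits. Tpm3, a tropomyosin, fell by 1.62, while its relative Tpm1 rose by 1.24. The list count fell to 9 without either DWT-I array, to 7 without DWT-IV replicate 1 and to 6 without DWT-II+III replicate 2, and to 3 with all 12 in vivo arrays (11 without DKO-I replicate 2). Rhd, Kel, Ank1 and Tpm1 each lost the call in at least 1 of these refits. Gypc and Sptb lost it with all 12 in vivo arrays, but not without DKO-I replicate 2 among them. The decrease of Tpm3 was lost with all 12 as well.

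In haem synthesis the housekeeping form of the first enzyme fell and the erythroid form did not pass. Alas1, the housekeeping aminolevulinate synthase, read 13.47 and 13.97 in DWT-II+III and 9.72 and 8.95 in DWT-IV. It fell by 4.38 ± 0.34 (adjusted p = 0.000351 in limma), with the groups far apart, and kept the call in all 17 refits. Alas2, the erythroid form, read 17.79 and 17.90 against 17.92 and 17.89 and did not pass at 0.06 ± 0.12, between -0.05 and 0.30 over the refits. Between DWT-I and DWT-II+III, Alas2 went from 16.87 and 17.16 to these levels. The other enzymes and the transporters mostly rose. Of 17 measured members 9 rose and 1 fell, with a median of 0.78. The mitochondrial transporter Abcb10 went from 14.04 and 12.44 to 15.50 and 15.51 (2.27 ± 0.43). Abcb6, a porphyrin transporter, rose by 2.75 ± 0.69, a call lost without DWT-IV replicate 1, without DWT-II+III replicate 2 and with all 12 in vivo arrays, but not without DKO-I replicate 2 among them. Urod, Alad, Cpox and Ppox, enzymes of the middle and late steps, rose by 1.16, 1.18, 1.37 and 1.50, and Fech, which inserts the iron, did not pass at 0.41 (adjusted p = 0.0738 in limma). The count of increases was 5 without either DWT-I array or without DWT-II+III replicate 2, and 3 without DWT-IV replicate 1. It was 1 with all 12 in vivo arrays and 2 without DKO-I replicate 2 among them.

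Genes of iron handling gave 5 increases (27.8%) and 1 decrease (5.56%) among 18, against 8.56% and 12.6% of all probe sets. Tfrc, the transferrin receptor, read 14.09 and 12.26 in DWT-II+III and 15.13 and 14.86 in DWT-IV. The female DWT-II+III array was far lower than the other 3, and the rise of 1.82 ± 0.50 (adjusted p = 0.0309 in limma) was lost in 8 of 17 refits, among them that without DWT-II+III replicate 2. Steap3, the ferrireductase of the same uptake route, went from 11.35 and 11.15 to 12.89 and 12.86, and Slc11a2, which moves iron out of the endosome, rose by 1.49. Hmox1, which degrades haem, fell by 1.49. With all 12 in vivo arrays 0 genes of this list rose, but Tfrc, Steap3 and Slc11a2 did without DKO-I replicate 2 among them. Without DWT-IV replicate 1 or either DWT-I array 2 members rose, and without DWT-II+III replicate 2 only 1 did.

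Erythroid transcription factors gave calls in both directions. Of 26 measured members 12 rose (46.2%) and 4 fell (15.4%), with a median of 0.63. Over all probe sets 8.56% rose and 12.6% fell. In the fit of only the probe sets above background 2378 of 8140 fell, a larger share than in this list. Gata1 read 9.25 and 9.27 in DWT-II+III and 11.99 and 10.99 in DWT-IV and rose by 2.23 ± 0.38 (adjusted p = 0.00459 in limma). Klf3, a repressor induced by KLF1, went from 12.28 and 11.23 to 14.12 and 13.63 (2.12 ± 0.37). Both kept the call in all 17 refits, with no overlap of groups. Klf1 rose by 1.42 ± 0.32 from 13.96 and 13.04 to 15.04 and 14.79. Its call was lost with all 12 in vivo arrays, and also without DKO-I replicate 2 among them. Foxo3, which drives antioxidant and mitochondrial clearance genes, rose by 1.74 ± 0.37 from 10.79 and 10.52 to 12.85 and 11.95. Both calls were lost without DWT-II+III replicate 2, and that of Klf1 also without DWT-IV replicate 1.

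The factors that fell are known from progenitors and other lineages. Spi1, the myeloid factor PU.1 that opposes GATA1, read 15.30 and 15.80 in DWT-II+III and 11.27 and 12.23 in DWT-IV and fell by 3.80 ± 0.31 (adjusted p = 0.000414 in limma). Myb fell by 3.03 ± 0.30, Gata2 changed by -2.31 ± 0.34 and Bcl11a by -1.65. The groups of Spi1, Myb and Gata2 lay apart by more than 1 log2 unit. The calls of Myb and Gata2 were lost with all 12 in vivo arrays, and that of Myb also without DKO-I replicate 2 among them and with all 20 arrays. Spi1 is also expressed by granulocytes and monocytes and Gata2 by mast cells, whose markers fell in the same arrays (values below). Their part in the result was not tested. In bulk RNA, fewer cells of a type and less RNA per cell cannot be told apart. The list gave 6 increases without DWT-IV replicate 1 and 4 without DWT-II+III replicate 2.

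**Figure D4:**
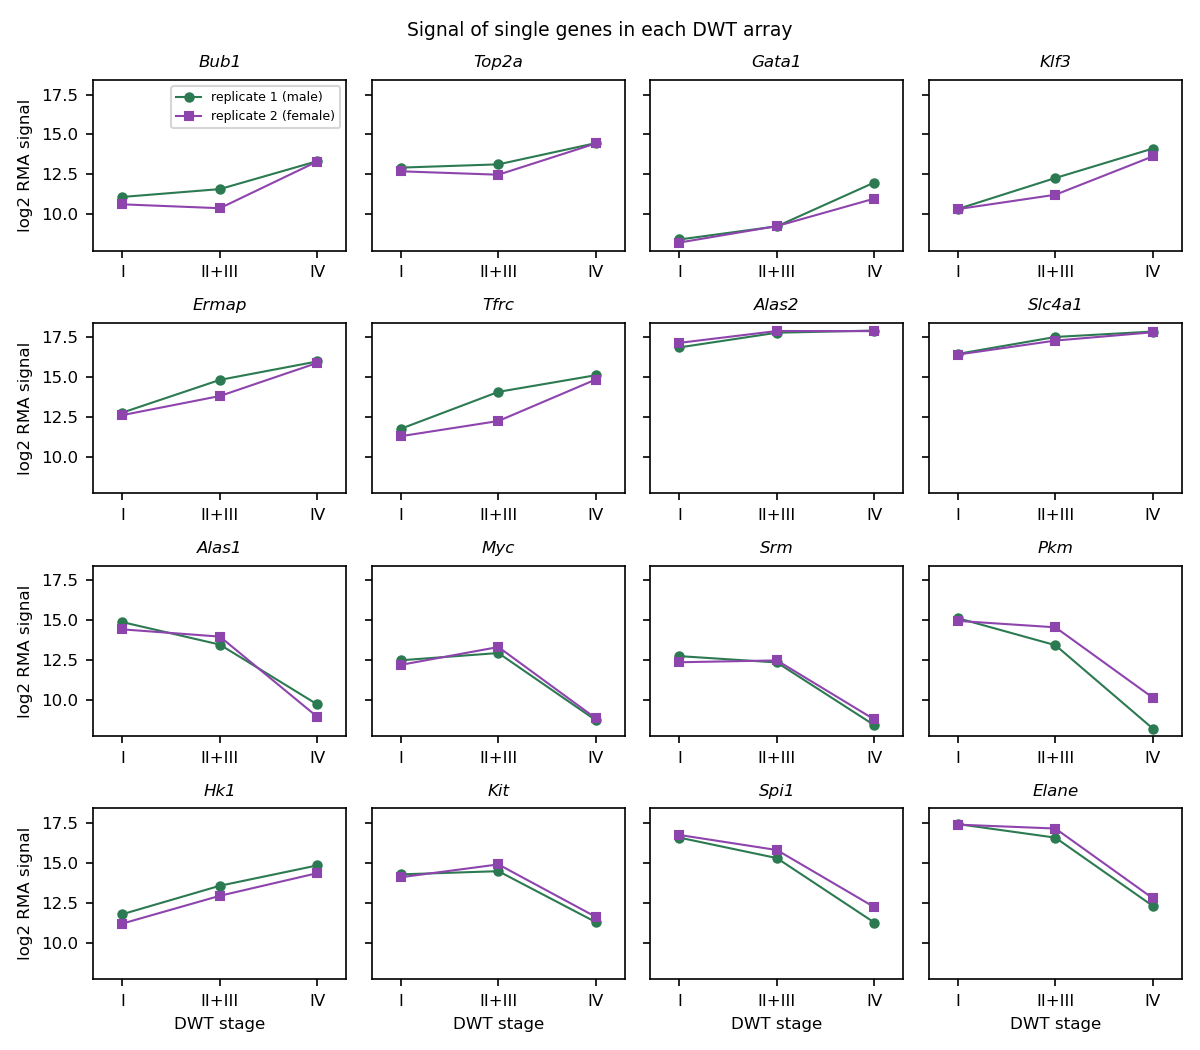
Log2 RMA signal (vertical axis) of 16 genes in each of the 6 DWT arrays by stage (horizontal axis), with replicate 1 (male) and replicate 2 (female) joined by lines. Alas1, Myc, Srm, Pkm, Kit, Spi1 and Elane fell from DWT-II+III to DWT-IV, Bub1, Top2a, Gata1, Klf3 and Ermap rose, and Alas2 at 17.79 and 17.90 against 17.92 and 17.89 did not pass.

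The receptors KIT and EPOR, which act early and late in this lineage, moved in opposite directions. Kit, the receptor of stem cell factor, read 14.48 and 14.90 in DWT-II+III and 11.29 and 11.62 in DWT-IV. It fell by 3.23 ± 0.25 (adjusted p = 0.000351 in limma), with no overlap, after 14.28 and 14.10 in DWT-I. Epor read 12.20 and 11.48 against 13.75 and 13.34 and rose by 1.70 ± 0.33, a call lost without DWT-II+III replicate 2. Kit lost its call in the 3 refits that added DKO or cultured arrays. That of Epor was lost with all 12 in vivo arrays, but not without DKO-I replicate 2 among them. Ptpn6, a phosphatase that dampens both receptors, fell by 3.53 ± 0.56, and Bcl2l1, the survival gene BCL-XL, did not pass at -0.02 ± 0.23. Of the 20 measured genes of this list 3 rose (15%) and 3 fell (15%), against 8.56% and 12.6% of all probe sets. Cd44, an adhesion receptor lost during maturation, fell from 10.74 and 11.96 to 8.71 and 8.88 (-2.56 ± 0.41). Within the list of adhesion to the macrophage niche 4 of 14 rose (28.6%) and 4 fell (28.6%). Emp3 and Cd9 fell (log2 changes of -3.41 and -2.78), and Icam4, the red cell ligand of macrophages, rose by 1.63.

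MYC and the genes of ribosome assembly fell together. Of 26 measured members 18 fell and 1 rose, with a median of -1.77, against 12.6% of all probe sets lower. The mean signal was 10.86 and 11.06 in DWT-II+III and 9.11 and 9.30 in DWT-IV, and 0 members passed between DWT-I and DWT-II+III. Myc read 12.94 and 13.31 in DWT-II+III and 8.74 and 8.85 in DWT-IV, more than 4 log2 units apart. It fell by 4.33 ± 0.29 (adjusted p = 0.000275 in limma). Srm, which makes spermidine, went from 12.35 and 12.48 to 8.43 and 8.78 (-3.81 ± 0.30). Npm1, the abundant nucleolar chaperone, fell from 16.22 and 16.25 to 14.59 and 14.65 (-1.61 ± 0.17). The nucleolar helicase Ddx21, the processing factor Pes1 and the polymerase I subunit Polr1b fell (log2 changes of -2.97, -2.52 and -2.25). The 1 member that rose was Odc1, the first enzyme of polyamine synthesis, from 14.45 and 13.50 to 15.69 and 15.64 (1.69 ± 0.29). Myc, Srm, Npm1, Ddx21, Pes1 and Odc1 kept the call in all 17 refits, and the count of decreases was 10 to 19.

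Cytosolic ribosomal protein genes went down by less. Of 60 measured 33 fell and 0 rose, with a median of -0.58. Rps14 read 16.70 and 16.75 in DWT-II+III and 16.02 and 16.33 in DWT-IV (-0.55 ± 0.14, adjusted p = 0.0271 in limma), and lost the call in 10 of 17 refits. The count ran from 0 with all 12 in vivo arrays (21 without DKO-I replicate 2) to 43. Without 1 DWT array it was lowest at 3, without DWT-IV replicate 1, and positive control scaling left 15. Ribosomal protein genes have many processed copies in the genome, and their probe sets may share signal. Of 73 mitochondrial ribosomal protein genes 14 fell and 0 rose, led by Mrpl19 at -2.37, with a median of -0.46. That is 19.2%, against 12.6% of all probe sets lower, and the count was 4 to 6 without DWT-IV replicate 1, either DWT-II+III array or either DWT-I array. With all 12 in vivo arrays it was 1, and 8 without DKO-I replicate 2. Of 82 genes of the respiratory chain and ATP synthase 13 fell (15.9%, near the share over all probe sets) and 0 rose, led by Ndufb5 at -1.94 and Sdhd at -1.58. Most members of both mitochondrial lists were above background. A fit of only the probe sets above background called 2378 of 8140 lower, a larger share than in either list. The median of the respiratory list was -0.20 and its sign turned in 1 or more refits, which gave -0.24 to 0.04. Its count was 2 without DWT-IV replicate 1, 3 without DWT-II+III replicate 2, 5 without either DWT-I array, 7 without DWT-II+III replicate 1 and 0 with all 12 in vivo arrays (8 without DKO-I replicate 2).

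Glycolytic genes fell more often than they rose. Of 20 measured members 10 fell and 2 rose, with a median of -1.03. Pkm, the pyruvate kinase of most cells, read 13.43 and 14.55 in DWT-II+III and 8.21 and 10.15 in DWT-IV and fell by 4.81 ± 0.58 (adjusted p = 0.0012 in limma). Pklr, the red cell and liver form, read 7.91 and 7.45 against 7.94 and 8.83, and did not pass at 0.70 although its groups did not overlap. Hk2 fell below background in both DWT-IV arrays (log2 bound -3.50), while Hk1, the hexokinase of red cells, rose from 13.57 and 12.94 to 14.84 and 14.36 (1.34 ± 0.32). The phosphofructokinase gene Pfkp fell by 2.09 and its relative Pfkm rose by 1.16. Pgam1 fell by 4.41, and the glucose transporter Slc2a1 went from 12.71 and 13.64 to 10.47 and 9.95 (-2.96 ± 0.36). Pkm, Pgam1 and Slc2a1 kept the call in all 17 refits. Hk1 and Pfkm lost it with all 12 in vivo arrays, but not without DKO-I replicate 2 among them. The rises of Hk1 and Pfkm were lost without DWT-IV replicate 1 and without DWT-II+III replicate 2, and that of Pfkm also without DWT-IV replicate 2 or either DWT-I array.

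Other solute carriers and enzymes of the mature red cell gave 8 increases and 1 decrease among 20, with a median of 0.78. The amino acid and monocarboxylate carriers Slc16a10, Slc38a5 and Slc16a1 rose by 1.83, 1.64 and 1.58, and the decrease was Slc2a1. Bpgm, which makes the ligand that lowers the oxygen affinity of haemoglobin, did not pass at 0.28. With all 12 in vivo arrays 0 members rose, but Slc16a10, Slc38a5 and Slc16a1 did without DKO-I replicate 2 among them. The count of increases was 5 without DWT-II+III replicate 2.

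Genes tied to the loss of organelles and of the nucleus were mixed. Of 31 autophagy genes 8 rose (25.8%) and 4 fell (12.9%), against 8.56% and 12.6% of all probe sets. Most of these genes were above background. The fit of only the probe sets above background called 1611 of 8140 higher and 2378 lower, the latter a larger share than in this list. The kinase Ulk1 rose by 1.90, the lipid scramblase Atg9a by 1.78 and the protease Atg4d by 2.01, and the lysosomal membrane gene Lamp2 and the conjugating enzyme Atg3 fell (log2 changes of -2.08 and -2.21). Bnip3l, the mitophagy receptor NIX of reticulocytes, read 16.29 and 16.50 against 16.59 and 16.47 and did not pass at 0.14. With all 12 in vivo arrays 0 autophagy genes rose, but Atg9a and Atg4d did without DKO-I replicate 2 among them. Without DWT-II+III replicate 2 the counts were 2 and 2, and without DWT-IV replicate 1 they were 4 and 3. Of 35 ubiquitin enzymes 11 rose (31.4%) and 4 fell (11.4%). The share that fell was near that over all probe sets and under that in the fit of only the probe sets above background. Usp32, a deubiquitinase, rose from 9.04 and 7.65 to 11.26 and 10.65 (2.61 ± 0.47) and kept the call in all 17 refits. Ube2o, the enzyme that clears ribosomes and unpaired globin, did not pass at 0.40 (adjusted p = 0.226 in limma). Trim58, a ligase that acts in enucleation, rose by 1.91 ± 0.53 from 12.15 and 11.01 to 14.05 and 12.93, a call lost in 6 of 17 refits. Without DWT-IV replicate 1 or without DWT-II+III replicate 2 the ubiquitin list gave 4 increases.

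Genes of nuclear condensation and enucleation gave 12 increases (37.5%) and 9 decreases (28.1%) among 32. Over all probe sets 8.56% were higher and 12.6% lower. Most members were above background, and the fit of only such probe sets called 1611 of 8140 higher and 2378 lower. The share of decreases in the list was near that in this fit. Within 2 families, relatives moved in opposite directions. Diaph3, a formin that acts in cytokinesis, rose from 14.27 and 13.48 to 15.40 and 15.10 (1.37 ± 0.28), whereas Diaph2 fell by 2.27 ± 0.50. Diaph1, which encodes mDia1, read 10.41 and 11.07 against 9.69 and 9.29 and fell by 1.26 ± 0.38 (adjusted p = 0.0449 in limma), a call lost in 10 of 17 refits. The nonmuscle myosin Myh10 rose by 1.73 and Myh9 fell by 0.98. Plek2, which acts on actin in late erythroblasts, rose by 2.03, and Xpo7, an exporter of histones and other proteins, by 0.71 ± 0.22 from 17.06 and 16.37 to 17.58 and 17.27. The call of Xpo7 was lost in 11 of 17 refits. Rac2 and the acetyltransferase gene Kat2a fell (log2 changes of -1.80 and -2.78). With all 12 in vivo arrays 0 genes of this list rose and Diaph2 lost its call. Without DKO-I replicate 2 among them Diaph3 and Myh10 rose and Diaph2 fell. The calls of Diaph2 and Myh10 were lost without DWT-IV replicate 1 and without DWT-II+III replicate 2, and that of Myh9 in 9 of 17 refits. The list gave 4 increases without DWT-IV replicate 1 or either DWT-I array, and 2 without DWT-II+III replicate 2.

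Stress and survival genes gave calls in both directions. Of 24 genes of the haem-regulated kinase and stress response 7 rose (29.2%) and 3 fell (12.5%). The share that fell was near the 12.6% over all probe sets and under that in the fit of only the probe sets above background. Eif2ak1, the haem-regulated kinase itself, rose by 1.13, Ddit3 by 1.61 and the phosphatase subunit Ppp1r15a, which reverses the kinase, by 2.15. With all 12 in vivo arrays 0 genes of this list rose, but these did without DKO-I replicate 2 among the arrays. Xbp1, the factor of secretory cells, fell by 3.13. Of 25 antioxidant genes 5 rose (20%), among them Nqo1 at 2.17 and Gclc at 1.88, and 5 fell (20%), with Gsr at -1.87 the largest. Of 25 p53 and apoptosis genes 6 fell and 1 rose. Bcl2 went from 11.50 and 12.20 to 7.71 and 9.42 (-3.28 ± 0.52), beside the value of Bcl2l1 given above. Among 38 proteasome subunits 4 rose (10.5%) and 6 fell (15.8%), near the 8.56% and 12.6% of all probe sets. Both shares were under those in the fit of only the probe sets above background. The largest decreases of the list were the 3 immunoproteasome subunits Psmb8 (-3.84), Psmb9 (-3.27) and Psmb10 (-2.39). Psmb8 read 12.21 and 12.96 in DWT-II+III and 8.58 and 8.91 in DWT-IV. Of 8 class II MHC genes 7 fell (87.5%), led by H2-DMa at -3.70. Of 22 interferon response genes 1 rose (4.55%) and 4 fell (18.2%), against 8.56% and 12.6% of all probe sets. With all 12 in vivo arrays 1 gene fell in each of these lists. H2-DMa lost its call there, but not without DKO-I replicate 2 among the arrays. Without DWT-II+III replicate 2 the stress list gave 2 increases, the antioxidant list 2 increases and 2 decreases and the p53 list 3 decreases, and without DWT-IV replicate 1 the stress list gave 4 increases. The proteasome list gave 1 increase without DWT-II+III replicate 2 and 2 without DWT-IV replicate 1, DWT-IV replicate 2 or either DWT-I array.

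Remaining lists gave few calls. Of 28 nuclear transport receptors 4 rose (14.3%) and 1 fell (3.57%), and of 22 nucleoporins 3 rose (13.6%) and 0 fell. Of 19 cholesterol synthesis genes 1 rose (5.26%) and 2 fell (10.5%). Over all probe sets 8.56% were higher and 12.6% lower. Of 4 embryonic globin genes 2 rose, Hbb-y by 1.34 and Hbb-bh2 by 1.24, at levels around background.

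Markers of other blood cell types fell in DWT-IV in most lists, and these values stand beside every increase and decrease above. Of 15 neutrophil genes 11 fell and 0 rose (median -3.31), of 10 granulocyte progenitor genes 7 fell (-3.61), of 7 eosinophil genes 6 fell (-3.69), of 9 mast cell and basophil genes 7 fell (-2.30) and of 17 monocyte and macrophage genes 8 fell (-1.23). Of 12 stem and progenitor genes 8 fell (-1.88), of 10 dendritic cell genes 8 fell (-2.02) and of 12 T and NK cell genes 6 fell (-1.37). B cells (2 of 10 fell), megakaryocytes (1 rose and 1 fell of 10) and stroma (1 of 12 fell) gave few calls. By mean signal, eosinophil genes went from 12.24 and 12.26 in DWT-II+III to 9.02 and 8.44 in DWT-IV, monocyte genes from 11.01 and 11.04 to 9.29 and 9.27, mast cell genes from 11.88 and 11.27 to 9.56 and 9.83, T and NK cell genes from 9.18 and 9.39 to 7.46 and 8.17, and dendritic cell genes from 7.74 and 7.73 to 5.82 and 6.20. Neutrophil genes differed between the mice as well as between the stages, with the male array lower in both groups. Some counts were lower in refits. Without DWT-II+III replicate 2, 6 neutrophil genes fell (median -2.03) and 3 T and NK cell genes did, and 8 neutrophil genes fell without DWT-IV replicate 1 or either DWT-I array. With all 12 in vivo arrays 0 mast cell and 0 T and NK cell genes passed, and 3 and 1 did without DKO-I replicate 2 among them. With all 12, 1 eosinophil, 3 granulocyte progenitor and 2 stem and progenitor genes fell. Epx, Prg3, Mpo, Prtn3, Cd34 and Flt3 fell as well without DKO-I replicate 2. The part of these cells in the changes of other genes, in either direction, was not tested.

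Single markers show the size of that decline. Elane, the neutrophil elastase of promyelocytes, read 16.58 and 17.15 in DWT-II+III and 12.31 and 12.79 in DWT-IV and fell by 4.32 ± 0.23 (adjusted p = 0.000131 in limma). S100a8, a cytosolic protein of mature neutrophils, read 14.13 and 15.24 against 9.07 and 11.79 and fell by 4.26 ± 0.71. Camp, an antimicrobial peptide of their granules, read 15.32 and 16.45 against 8.69 and 12.42 (-5.33 ± 0.93). All 3 stayed above background in DWT-IV, with the male array the lowest.

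The 15 largest increases by the naming rule held few listed genes. Slc25a42, above background in 1 of the 2 DWT-II+III arrays and a mitochondrial carrier of coenzyme A, led with 7.75 and 7.21 in DWT-II+III and 10.85 and 10.48 in DWT-IV (3.19 ± 0.35, adjusted p = 0.000854 in limma). Mgll, which hydrolyses monoacylglycerols, went from 9.49 and 8.93 to 12.24 and 12.48, and Fntb, the farnesyltransferase subunit, rose by 3.03 ± 0.38. In each of these genes the DWT-IV arrays lay above both DWT-II+III arrays by more than 2 log2 units. Smim18 and Slc24a1 were below background in both DWT-II+III arrays, with log2 bounds of 2.34 and 2.08. The others were Mageb16 (2.83), Dennd2c (2.81), the phosphatase Ppm1l (2.78), the deubiquitinase Usp46 (2.75), Snx32 (2.70) and Arhgef12 (2.69), beside Orc1, Ankle1, Kif14 and Abcb6.

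The 15 largest decreases held granule genes beside genes that many cell types use. Prg3 and Epx, proteins of eosinophil granules, led with Prg3 at 12.97 and 12.70 in DWT-II+III and 7.84 and 6.75 in DWT-IV (-5.54 ± 0.44) and Epx below background in both DWT-IV arrays (log2 bound -4.11). Flna, the actin crosslinker filamin A, read 13.31 and 14.37 against 7.24 and 10.40, and the cytokine receptor chain Il6st read 11.37 and 12.53 against 5.89 and 7.58. In Flna, Il6st, Tmem154, Cd34 and Prg3 only 1 of the 2 DWT-IV arrays was above background, so those fold changes are less certain. The others were Camp, Jchain (-4.96), Tifab (-4.81), Prtn3 (-4.77), Mapkapk3 (-4.68), Adgrl4 (-4.50), Runx3 (log2 bound -3.99), Pkm and Hk2. Tmem154 fell by 5.36 and Cd34, a surface antigen of progenitors, fell by 4.88. The calls of Prg3, Epx, Cd34, Prtn3, Jchain, Adgrl4 and Hk2 were lost with all 12 in vivo arrays, and only that of Jchain also when DKO-I replicate 2 was left out of them.

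Set against the step before it, the terminal step differed in 115 probe sets (0.588%) in limma, 22 with a higher change (0.112%) and 93 with a lower one (0.475%). From DWT-I to DWT-II+III 342 probe sets rose (1.75%) and 310 fell (1.58%). The 2 steps share the DWT-II+III arrays. The 5 largest higher differences were genes with their highest signal in DWT-I, among them Mmp9, a protease of neutrophil granules. Il1f9, an epithelial and myeloid cytokine, read 12.96 and 13.56 in DWT-I, 6.13 and 5.46 in DWT-II+III and 5.62 and 5.33 in DWT-IV. Mmp9, Ceacam10, Trem1 and Cstdc4 had differences between steps of 5.76, 5.31, 5.10 and 5.09. Il1f9, Mmp9, Ceacam10 and Cstdc4 lay below background in both arrays of DWT-II+III and of DWT-IV, where a further fall could not be read. Trem1 was above background in 1 DWT-II+III array and in both DWT-IV arrays. The 5 largest lower differences were genes that peaked in DWT-II+III. Il2rb, an interleukin 2 receptor chain of T and NK cells, read 8.40 and 9.19, then 12.20 and 13.21, then 8.50 and 10.18. Cd7, the mast cell protease Cpa3, Muc13 and the TIE2 ligand Angpt1 gave differences of -6.21, -6.20, -6.17 and -6.11. The count was 217 with the mouse as a block, 2 to 28 without any single DWT-I or DWT-II+III array, 514 without DWT-IV replicate 2 and 1 with all 12 in vivo arrays, or 10 without DKO-I replicate 2 among them.

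Set against the same step in DKO mice, the double wild-type step differed in 0 of 19572 probe sets in limma (0%), while 1174 had an unadjusted p under 0.05. The count was 24 without DKO-II+III replicate 2 and 0 in the other alternatives. In DKO mice 2935 probe sets passed for the step itself, 1414 higher and 1521 lower. The medians of the lists in the 2 genotypes, DWT first, were 1.56 and 2.52 for mitosis, 1.17 and 3.14 for the membrane, 0.78 and 1.67 for haem synthesis, -1.77 and -1.18 for MYC with ribosome biogenesis, -1.03 and -1.19 for glycolysis and -3.31 and -3.39 for neutrophils. Differences between these medians were not tested. For Slc4a1 the DKO arrays read 15.17 and 15.52 in DKO-II+III and 17.51 and 17.38 in DKO-IV, a rise of 2.10 beside 0.43 in DWT (adjusted p = 0.193 in limma for the difference). Bcl2l1 rose by 2.98 from 11.14 and 12.08 to 14.62 and 14.57 in DKO, beside -0.02 in DWT (adjusted p = 0.229 in limma for the difference). Myc read 13.11 and 9.80 in DKO-II+III and 10.73 and 10.26 in DKO-IV, so the DKO replicates differed by more than the step, and the difference between steps had an adjusted p of 0.789 in limma.

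**Figure D5:**
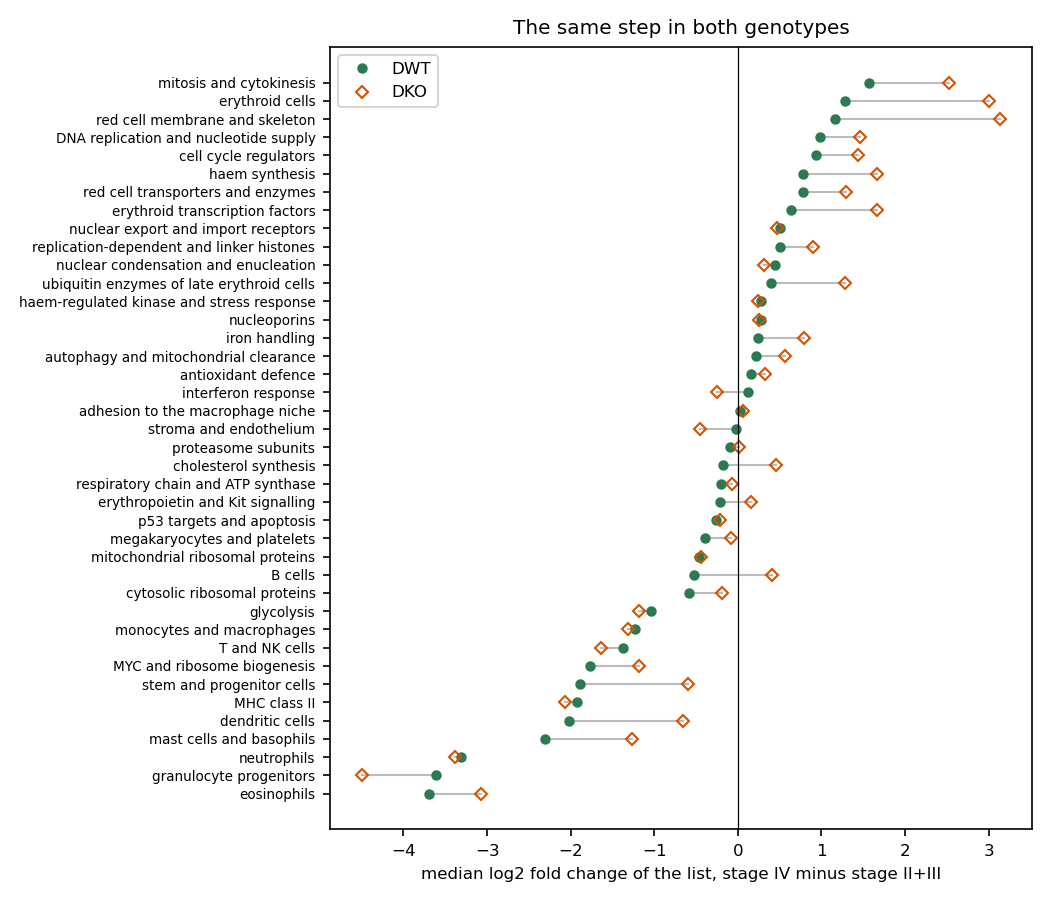
Median log2 fold change from stage II+III to stage IV (horizontal axis) of each gene list with at least 7 measured members (rows), with double wild type (DWT) as filled circles and the double knockout (DKO) as open diamonds, 2 arrays per group. The membrane list had 1.17 in DWT and 3.14 in DKO and the neutrophil list -3.31 and -3.39, and in limma 0 probe sets differed between the 2 steps.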

How the data were processed

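Total RNA was extracted with Trizol, and 700 pg of it was amplified with a GeneChip Pico kit, per the labels' protocols. The deposited values are log2 signals, made by the authors with RMA in Affymetrix Expression Console, per the submitters' processing notes (versions not given in the sources used here). Whether the 20 arrays were normalized together is not given there either. Values ran from 2.88 to 19.28 and were used as deposited. Of 28846 probe sets, the 19572 transcript probe sets with 1 gene symbol were tested. Control probe sets served for background and scaling checks.

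The 6 DWT arrays were fitted together in R 4.3.3 by limma 3.58.1, using lmFit and trended eBayes (3 residual and 6.10 prior degrees of freedom). The DKO arrays were kept out of this fit because 1 of them (DKO-I) was known from earlier results to stand apart. This choice was therefore made with the data known. All tests were 2-sided. Adjustment followed Benjamini and Hochberg over all 19572 probe sets, and an adjusted p under 0.05 passed. The difference between DWT and DKO steps was an interaction contrast in 8 arrays, and the difference between steps a contrast in the 6 DWT arrays. Errors are the model's standard errors of the log2 change (n = 2 arrays per group). Where both arrays of the lower group lay under background, a log2 bound against that level is given. In simulated data of this design limma recovered 4 of 100 changes of 1 log2 unit and 69 of 100 changes of 2 log2 units. There were 4 false calls, and small changes were missed often. No other probe sets of the 19572 were changed there, whereas the real comparison called 4139. More changes ease the adjusted threshold, so these shares do not measure how often real changes were missed.

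The named genes are the 15 largest called increases and decreases above background without overlap, the leading members of each list, and genes set by name. Members and lists were chosen with earlier results of these data known. Some of the genes set by name were not matched and are not analysed here. Symbols are those of the platform annotation. Replicate numbers follow accession order. At each stage replicate 1 was male and replicate 2 female, and the series states 2 double wild-type mice. From this it was inferred that the numbers pair the stages of a mouse. The main fit did not use this pairing, so its errors take the arrays as independent. Deviations from the group means of the same mouse correlated across probe sets at 0.124 between DWT-II+III and DWT-IV, 0.0988 between DWT-I and DWT-II+III, and 0.0214 between DWT-I and DWT-IV. Alternatives covered scaling, a filter on dim probe sets, the trend and robust options, the arrays in the fit, the mouse as a block, thresholds and leaving out each array.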

Additional observations from a re-analysis of the deposited data

How the results depend on the processing

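With the mouse as a replicate block the double wild-type step gave 4283 called probe sets (1733 higher and 2550 lower) and the difference between steps gave 217 (32 higher and 185 lower). The step gave 2465 calls (966 and 1499) with all 20 arrays and 1010 (311 and 699) with all 12 in vivo arrays, but 3272 (1347 and 1925) with DKO-I replicate 2 left out of the 12, so most of that loss came with 1 array. Fitting the 4 compared arrays alone gave 2788 calls, 944 of them higher. An adjusted p under 0.01 left 1762 (448 and 1314). Positive control scaling gave 3132 higher calls. Leaving out 1 array gave 1764 to 4237 calls, 461 to 1799 higher and 1303 to 2438 lower. The lowest were without DWT-II+III replicate 2. A group left with 1 array takes its spread from the other groups by assumption.

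The difference from the step before gave 67 calls (14 higher and 53 lower) with quantile normalization, 73 (53 lower) with median centring, 265 (39 and 226) after the filter on dim probe sets, 1 (1 and 0) with all 12 in vivo arrays, and 10 (6 and 4) without DKO-I replicate 2 among them, a refit chosen after seeing the data. Leaving out 1 array gave 2 to 514 calls, 0 to 87 higher and 2 to 427 lower, with 514 without DWT-IV replicate 2. The difference between genotypes gave 0 to 24 calls on leaving out 1 array, 0 to 2 higher and 0 to 22 lower, and 0 under each other alternative run, where 1174 probe sets had an unadjusted p under 0.05 in the fit as reported. Apart from the arrays in the fit, DKO-I replicate 2 among them, and a stricter threshold, the cause was not tested. Weak signal over background limits what can be read from the 598 called probe sets that lay near background in both groups.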
